A study of Mus musculus with 8 samples.

Results

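The casein genes are the 5 rows of the deposited gene table named Csn1s1, Csn2, Csn1s2a, Csn1s2b and Csn3, chosen by name alone out of 55933 genes. RNA-seq libraries came from the mammary epithelial cells of 8 female mice at day 14.5 of pregnancy, 4 of them controls and 4 of them Bmpr1a cKO. The cKO mice were K14-rtTA;teto-Cre;Bmpr1a fl/fl females on a C57BL/6 background. In them the K14 promoter drives rtTA, which switches on teto-Cre under doxycycline and so directs the deletion to the myoepithelial layer. The controls were C57BL/6 littermates that the sample labels call WT, and which alleles or doxycycline each control carried was not given in the sources used here. The cells were freed from the gland with collagenase and hyaluronidase and were not sorted. Every library thus mixes luminal cells, which make casein, with myoepithelial cells, to which the deletion is directed in the cKO mice. Between 16123108 and 19896988 reads lay on genes in each library. Bmpr1a itself was 10.1 ± 1.28 FPKM in the controls and 11.2 ± 1.01 FPKM in the cKO libraries (SD, n = 4 each), with overlapping groups. The targeted gene's RNA was thus no lower in the cKO libraries than in the controls, and each direction given here rests on the labels.

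Caseins are the main proteins of milk. The calcium-sensitive caseins, which are the α-caseins of Csn1s1, Csn1s2a and Csn1s2b and the β-Casein of Csn2, are phosphorylated in the Golgi and bind calcium phosphate, and κ-casein, the product of Csn3, coats the surface of the casein micelle and keeps it in suspension. The genes lie together in a cluster and are switched on in alveolar luminal cells during pregnancy, when prolactin acts through JAK2 and STAT5 together with glucocorticoid signals and the transcription factor ELF5.

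On GRCm38 the cluster ran over 266 kb of chromosome 5, from the start of Csn1s1 at 87666208 to the end of Csn3 at 87932665. Csn1s1 lay at chr5:87666208-87682578, Csn2 at chr5:87692624-87699630, Csn1s2a at chr5:87774567-87788797, Csn1s2b at chr5:87808082-87824426 and Csn3 at chr5:87925579-87932665. Csn2 was the only member on the minus strand. Gaps of 10.045 kb, 74.9 kb, 19.3 kb and 101 kb separated neighbouring members in this order. No run of 50 bases in any transcript of a casein gene was present in a transcript of another casein gene, so reads of that length could not be split between members. Csn1s1, Csn1s2a and Csn1s2b shared no such run with any other gene, Csn2 shared 0.0676% of its runs and Csn3 1.92%.

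RefSeq promoter sequences of build GRCm38.p6 were found for 3 of the 5 members, Csn1s1, Csn2 and Csn1s2a. They are shown because STAT5 is the factor through which prolactin reaches these genes. The STAT5 motif searched was TTCNNNGAA, which reads the same on both strands, and each of the 3 windows, of 250 bases before and 50 after the start, held it. The stretches below run 5′ to 3′ on the strand of the gene, with the match in capitals.
Csn1s1, chr5:87666098-87666127: tttgtaacaaTTCTTAGAAtttatgtaaaa
Csn2, chr5:87699499-87699528: tcacgtagacTTCTTGGAAttgaagggact
Csn1s2a, chr5:87774460-87774489: ttatagtgctTTCTTAGAAttacaatgact
Csn2, a match with 1 more base in its middle, chr5:87699546-87699575: accctagaatTTCTTGGGAAagacaataga

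The match lay from -100 to -92 of the RefSeq start in Csn1s1 and from -93 to -85 in Csn2. In Csn1s2a it lay from 21 to 29 bases past the RefSeq start, but GENCODE places the start of the principal transcript 117 bases further downstream, and counted from there it lay from -97 to -89. The 9 letters were identical in Csn1s1 and Csn1s2a. In Csn2 the GENCODE principal transcript begins 205 bases upstream of the RefSeq start, so that in this transcript model both matches fall in its first exon. Among the 32851 RefSeq promoters, 7.02% held the motif in the 250 bases before the start and 8.30% in the whole 300-base window. The form with 1 more base was in 5.85%. The 250 bases before the start of Csn1s1 are given whole, as no transcript of the gene in GENCODE reaches into them.
Csn1s1, chr5:87665958-87666207: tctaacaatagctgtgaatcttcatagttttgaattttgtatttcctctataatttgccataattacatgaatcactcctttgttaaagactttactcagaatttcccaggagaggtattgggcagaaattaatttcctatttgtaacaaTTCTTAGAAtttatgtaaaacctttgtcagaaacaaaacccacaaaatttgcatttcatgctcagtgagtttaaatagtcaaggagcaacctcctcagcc

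Of the other motifs searched on both strands, the glucocorticoid receptor motif AGAACA was in the 250 bases before the start of 1 of the 3 genes, Csn1s2a, on the strand opposite to the gene, and in 16.1% of all promoters. The C/EBP motif TTGCNNAA, the NF1 motif TTGGCA and the TATA box letters TATAAA were in none of the 3 and in 9.56%, 12.3% and 12.4% of all promoters. A match describes letters and not a bound site.

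Levels were first read as the deposited FPKM, a read count divided by gene length and by sequencing depth. Among the members 4 were abundant and 1 was nearly silent. Csn1s2a was the highest member in every library, followed by Csn2, Csn1s1, Csn3 and Csn1s2b, and this order was the same in 8 of 8 libraries. Csn1s2a ranked between 5 and 11 among all genes by FPKM in the control libraries and between 1 and 3 in the cKO libraries. Csn1s2b ranked between 14112 and 16467 in the controls and between 10031 and 12859 in the cKO libraries. In the controls, the ranges of Csn1s2a and Csn2 overlapped, with 1556 to 2547 FPKM against 1455 to 1856 FPKM, as did the ranges of Csn1s1 and Csn3, with 547 to 814 FPKM against 438 to 629 FPKM. Within each library these neighbours kept their order.

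**Figure D1:**
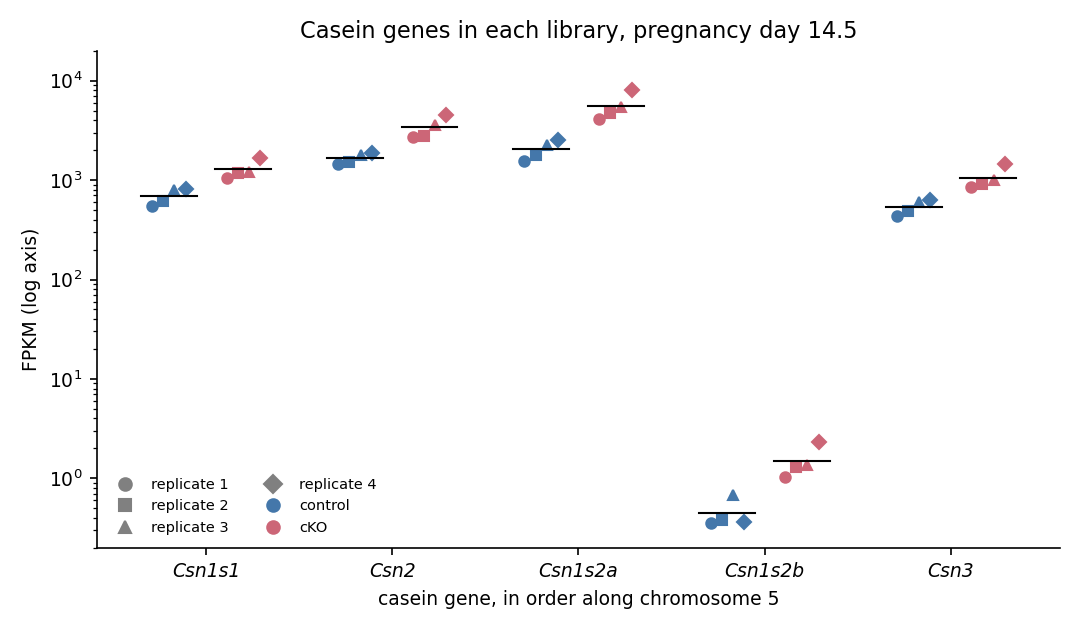
FPKM of each casein gene on a log axis, with control libraries in blue, cKO libraries in red, a marker shape for each replicate number and a black bar at the group mean. The 4 cKO libraries lie above the 4 control libraries for each of the 5 genes, and Csn1s2b lies far below the other members at 0.352 to 2.33 FPKM.

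The first comparison asked how the level of each casein differed between control and cKO libraries. Csn1s2a and Csn2 rose in the cKO libraries after adjustment over all genes tested, and the other 3 members were higher in every cKO library without passing it. Csn1s2a, which encodes an αs2-type casein, measured 1556, 1787, 2276 and 2547 FPKM over the 4 controls, listed by replicate number, and 4117, 4717, 5486 and 8004 FPKM over the 4 cKO libraries. The lowest cKO library was 1.62 times the highest control library. The group means were 2041 ± 451 and 5581 ± 1710 FPKM (SD, n = 4 each). By limma on log2(FPKM + 1) the log2 fold change was 1.43 ± 0.24 (SE, Benjamini-Hochberg adjusted p = 0.0377).

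Csn2, the β-Casein gene, was 1455, 1524, 1775 and 1856 FPKM in the controls and 2711, 2802, 3601 and 4523 FPKM in the cKO libraries. No cKO library reached down to the controls. Its mean was 1653 ± 193 FPKM against 3409 ± 843 FPKM (SD, n = 4 each). Its log2 fold change by limma was 1.02 ± 0.18 (SE, adjusted p = 0.0461). The cKO libraries were also more spread than the controls, with a coefficient of variation of 24.7% against 11.7%.

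Csn3, the κ-casein gene, was 438, 484, 602 and 629 FPKM in the controls and 853, 913, 995 and 1448 FPKM in the cKO libraries. The groups did not overlap, and the log2 fold change was 0.95 ± 0.19 (SE, limma, adjusted p = 0.0591). Csn1s1, which encodes αs1-casein, was 547, 620, 796 and 814 FPKM in the controls and 1057, 1169, 1214 and 1672 FPKM in the cKO libraries. Here too the groups lay apart, with a log2 fold change of 0.88 ± 0.18 (SE, limma, adjusted p = 0.0647). For both genes cKO replicate 4 was the highest library, as it was for every member.

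Csn1s2b, a second αs2-type gene, was 0.352, 0.380, 0.687 and 0.363 FPKM in the controls and 1.02, 1.295, 1.38 and 2.33 FPKM in the cKO libraries. These values rest on 26, 28, 49 and 29 reads and on 84, 91, 93 and 184 reads. The counting interval of the highest control library (95% exact Poisson, 36.3 to 64.8 reads) lay below that of the lowest cKO library (67.0 to 104 reads). Intervals of this kind cover counting error only. The mean was 3.38 times higher in the cKO group. On log2(FPKM + 1) the difference was 0.77 ± 0.16 (SE, limma, adjusted p = 0.0624), and without a pseudocount it was 1.75, since adding 1 to values this low compresses them. The control mean of 0.445 FPKM was under the minimum of 0.5 FPKM used for testing, so the gene was tested only through its level in the cKO group.

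In all, 5 of 5 casein genes were higher in every cKO library than in every control library, against 6.1% of the 15143 genes tested. By limma 2 of 5 passed an adjusted p of 0.05 in the higher direction, against 0.588% of all genes tested, and no member passed in the lower direction, against 0.304%. At an unadjusted p of 0.05 the count was 5 of 5, against 8.85% of all genes higher and 7.53% lower. The median log2 fold change of the 5 was 0.95, and that of all genes tested was 0.00072. On the reads recovered from the FPKM, limma-voom called 5 of 5, against 0.991% of all genes. Without Csn1s2b, which entered only through the cKO group, the counts for the 4 members past the minimum in both groups were 4 without overlap, 2 by adjusted p, 4 by unadjusted p and 4 by limma-voom. For each gene alone the exact permutation test over mice gave p = 0.0286 (two-sided), the smallest that 4 libraries against 4 allow. Csn2 is among the milk genes that the study named from these same libraries, and the members were chosen with earlier results known, so their direction is not independent evidence.

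The limma calls rested on all 8 libraries and on the minimum of 0.5 FPKM. Without a minimum the adjusted p was 0.291 for Csn1s2a and 0.308 for Csn2, and 0 of 5 members were called. With any 1 library left out, the adjusted p of Csn2 lay between 0.0575 and 0.127, and Csn1s2a passed only without cKO replicate 1 (adjusted p = 0.0456) and reached up to 0.0990 in the other 7 cases. The libraries of replicates 1 and 2 and those of replicates 3 and 4 deviated together across genes, so differences were also taken within these sets. No label names these sets. They were read from the values of these same libraries, so a fit with them is not independent support. With a term for the sets in limma, the other 3 members passed as well, with an adjusted p of 0.0174 for Csn1s1, 0.0173 for Csn3 and 0.0344 for Csn1s2b, in a fit that called 1.79% of all genes tested higher against 0.588% without the term. Without a pseudocount, the log2 difference within replicates 1 and 2 was 0.93 for Csn1s1, 0.89 for Csn2, 1.40 for Csn1s2a, 1.65 for Csn1s2b and 0.94 for Csn3. Within replicates 3 and 4 it was 0.82, 1.15, 1.46, 1.84 and 0.96 in the same order.

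The differences are given here in the order of the genes along the chromosome, as a description of the members side by side. Without a pseudocount the log2 difference was 0.88 at Csn1s1, 1.02 at Csn2, 1.43 at Csn1s2a and 1.75 at Csn1s2b, which rests on 26 to 184 reads per library, and 0.95 at Csn3, the member furthest from the others. The genes between the members stayed close to silence. In the 266 kb there were 9 genes other than the caseins, of which 5 had no read in any library. The other 4 were Odam, an enamel organ gene, with 0 to 5 reads per library, Gm42845, a pseudogene of 105 bases with 1 to 5 reads, Prr27 with at most 1 read and Gm42794 with at most 2 reads. One of the silent genes, 1700066N21Rik, overlaps Csn3 on the opposite strand and had 0 reads in all libraries, which allows up to 3 reads per library.

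**Figure D2:**
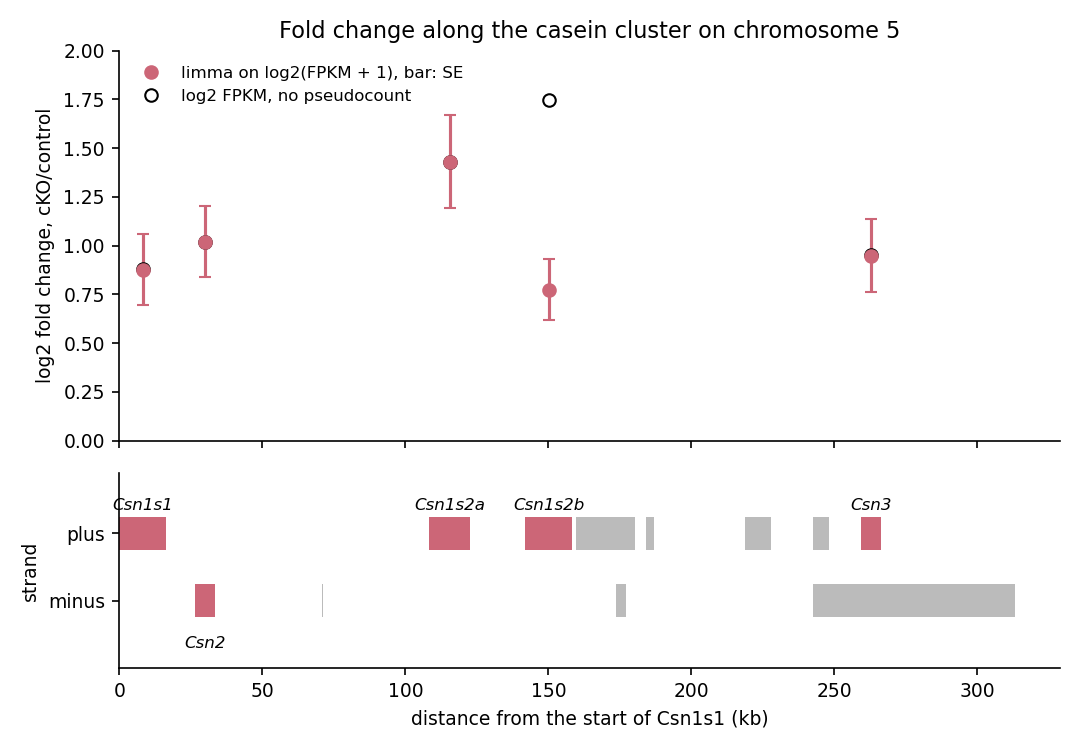
Upper panel, log2 fold change of each casein gene against its distance from the start of Csn1s1 in kb, as the limma value with its SE in red and as the difference of log2 FPKM in open circles. Lower panel, the extent and strand of the casein genes in red and of the other genes in grey, in which genes of 105 or 123 bases are too narrow to see or appear as a hairline. Csn1s2b reaches 1.75 without a pseudocount and 0.77 with it, while the other members change little between the scales.

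The nearest expressed genes outside the cluster, with a mean of at least 0.5 FPKM, were taken as a comparison. Sult1d1, a sulfotransferase gene on the minus strand whose lower coordinate lies 112 kb before the start of Csn1s1, was 0.268 ± 0.116 FPKM in the controls. It was 0.783 ± 0.230 FPKM in the cKO libraries (SD, n = 4 each). Its limma log2 fold change was 0.49 (adjusted p = 0.103). It rested on 7 to 39 reads per library and, like Csn1s2b, was tested only through its level in the cKO group, so that its values are a description. The other 5 neighbours were Ythdc1, Gm5869, Jchain, Utp3 and Rufy3. Their groups overlapped and their log2 fold changes ran from -0.91 for Jchain to 0.11 for Gm5869.

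The second comparison asked whether the casein genes kept their proportions to each other. A ratio within a library does not depend on how the library was scaled. Csn1s2a differed most against the other abundant members. Its ratio to Csn1s1 was 2.84, 2.88, 2.86 and 3.13 in the controls and 3.90, 4.03, 4.52 and 4.79 in the cKO libraries. The control values lay close together and all 4 cKO values lay above them. The log2 ratio was 0.55 higher in the cKO group, with SD of 0.06 and 0.14 (n = 4 each, two-sided exact permutation test, p = 0.0286, and 0.0571 when adjusted over the 10 ratios).

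The ratio of Csn1s2a to Csn2 was 1.07, 1.17, 1.28 and 1.37 in the controls and 1.52, 1.68, 1.52 and 1.77 in the cKO libraries, again without overlap. The log2 ratio differed by 0.41 (two-sided exact permutation test, p = 0.0286, adjusted p = 0.0571). Csn1s2a was likewise higher relative to Csn3, whose ratio to Csn1s2a was 0.282, 0.271, 0.265 and 0.247 in the controls and 0.207, 0.193, 0.181 and 0.181 in the cKO libraries. The log2 ratio of Csn3 to Csn1s2a differed by -0.48 (two-sided exact permutation test, p = 0.0286, adjusted p = 0.0571).

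The ratios among Csn1s1, Csn2 and Csn3 differed less between the groups. The ratio of Csn3 to Csn1s1, the outermost members of the cluster, was 0.801, 0.782, 0.757 and 0.773 in the controls and 0.807, 0.780, 0.819 and 0.866 in the cKO libraries. The groups overlapped, and the log2 ratio differed by 0.07 ± 0.04 (SE, two-sided exact permutation test, p = 0.0857, adjusted p = 0.122). Csn2 against Csn1s1 differed by 0.14 ± 0.09 (SE, exact permutation test, p = 0.171, adjusted p = 0.214). Csn3 against Csn2 differed by -0.07 ± 0.07 (SE, exact permutation test, p = 0.429, adjusted p = 0.429).

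The ratios of Csn1s2b to the other members carried the counting error of its 26 to 184 reads. Against Csn1s1 the log2 ratio was 0.87 ± 0.22 (SE) higher in the cKO group. That of Csn3 to Csn1s2b differed by -0.80 ± 0.22 (SE), and neither ratio overlapped between the groups (exact permutation test, p = 0.0286, adjusted p = 0.0571 each). Against Csn2 the difference was 0.73 ± 0.23 (SE) and against Csn1s2a 0.32 ± 0.23 (SE), both with overlapping groups. With a pseudocount of 1, which is near the level of Csn1s2b itself, each of these ratios changed direction, that to Csn1s1 to -0.10.

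Of the 10 ratios, 5 did not overlap between the groups and 0 passed an adjusted p of 0.05 by the exact permutation test, while 5 passed without adjustment. As 4 libraries against 4 give no p under 0.0286, no ratio could pass the adjustment unless at least 6 of the 10 lay at that value, so the count of 0 is bounded by the design. Without control replicate 3, the library with the highest Csn1s2b of its group, 7 of the 10 had an adjusted p of 0.0408, and without any other single library 0 did. Within replicates 1 and 2 the log2 ratio of Csn1s2a to Csn1s1 differed by 0.47 and within replicates 3 and 4 by 0.64, and that of Csn1s2a to Csn2 by 0.51 and 0.31. That of Csn2 to Csn1s1 differed by -0.045 and 0.33, so its direction was not the same in the 2 sets.

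**Figure D3:**
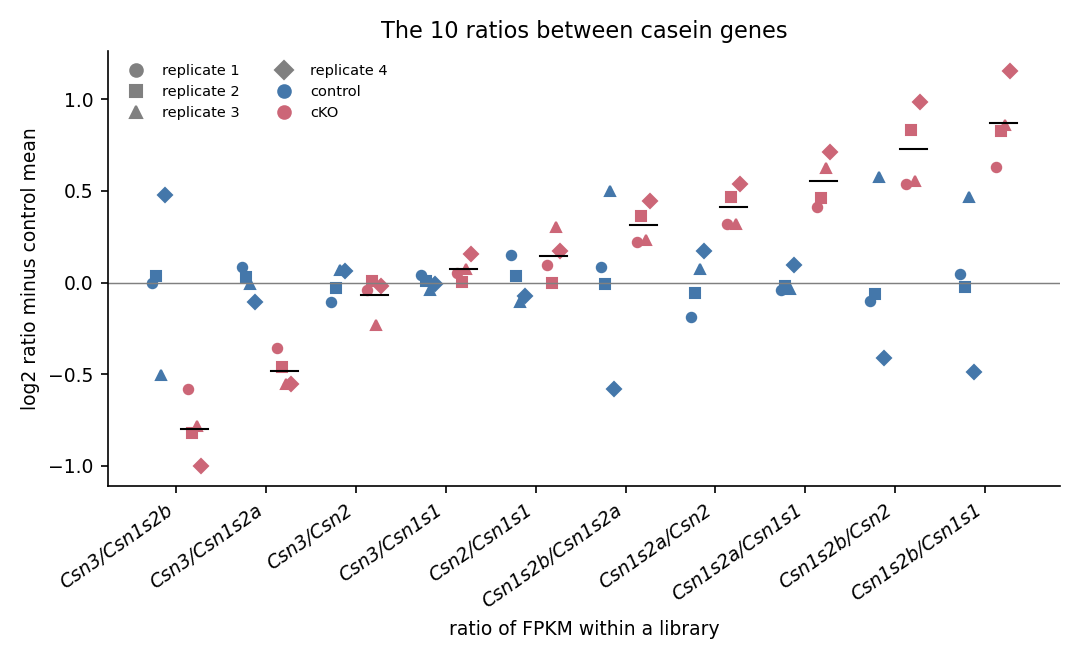
Log2 ratio of FPKM between each pair of casein genes within a library, minus the mean of the control libraries, sorted by the difference between the groups. Control libraries are blue, cKO libraries red, marker shapes give the replicate number and black bars the cKO mean, which runs from -0.80 for Csn3/Csn1s2b to 0.87 for Csn1s2b/Csn1s1.

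The make-up of the casein reads followed these ratios. Csn1s2a held 28.2% ± 1.71 of the casein reads in the controls and 34.9% ± 1.56 in the cKO libraries, without overlap, while Csn1s1 held 17.2% ± 0.607 and 14.5% ± 0.997 and Csn3 8.87% ± 0.104 and 7.89% ± 0.345, both lower without overlap (SD, n = 4 each). Csn2 held the largest share in both groups, with 45.7% ± 2.23 and 42.6% ± 1.64, and its groups overlapped. Csn1s2b held 0.00753% and 0.0113%. These shares sum to the whole by construction, so a higher share of 1 gene lowers the others.

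Together the casein genes held 2.16%, 2.39%, 2.82% and 2.95% of all reads on genes over the controls by replicate number, and 4.37%, 4.78%, 5.50% and 7.08% over the cKO libraries. All cKO libraries lay above the controls. The exact Clopper-Pearson 95% interval was 2.16% to 2.17% in the lowest library and 7.07% to 7.09% in the highest, which covers counting error only, and the spread between mice was far wider. The mean was 2.58% ± 0.365 in the controls and 5.43% ± 1.19 in the cKO libraries (SD, n = 4 each), 2.11 times higher.

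Which casein is the most abundant depends on the length that reads are divided by. The length in the deposited table equals the union of the exons of all GENCODE transcripts, retained introns included, and is far longer than the mRNA. For Csn2 it is 6926 bases against 1329 bases for the principal transcript, for Csn1s1 6247 against 1411, for Csn1s2a 3504 against 920, for Csn1s2b 4259 against 810 and for Csn3 4152 against 1596. The ratio of the lengths thus runs from 2.602 for Csn3 to 5.26 for Csn1s2b. Without a pseudocount, the fold change of a gene and the difference of a log2 ratio do not depend on this length. The minimum of 0.5 FPKM and values on log2(FPKM + 1) do, which touches Csn1s2b, with a control mean of 0.445 FPKM by the deposited length and 2.34 FPKM by that of the principal transcript.

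Per length of the principal transcript, an alternative chosen after the values were seen, the controls held 8613 ± 1007 FPKM of Csn2 and 7775 ± 1719 FPKM of Csn1s2a (SD, n = 4 each). The cKO libraries held 17768 ± 4394 FPKM of Csn2 and 21257 ± 6512 FPKM of Csn1s2a. Csn2 then came first in 3 of the 8 libraries and Csn1s2a in 5, while Csn1s1, Csn3 and Csn1s2b followed in the same order in all 8. Csn1s2a was 0.895 ± 0.0962 times Csn2 in the controls and 1.19 ± 0.0905 times Csn2 in the cKO libraries (SD, n = 4 each). With the shortest well-supported coding transcripts, of 1117 and 917 bases, these ratios were 0.754 and 1.00. In reads not divided by length Csn2 was first in 8 of 8 libraries.

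**Figure D4:**
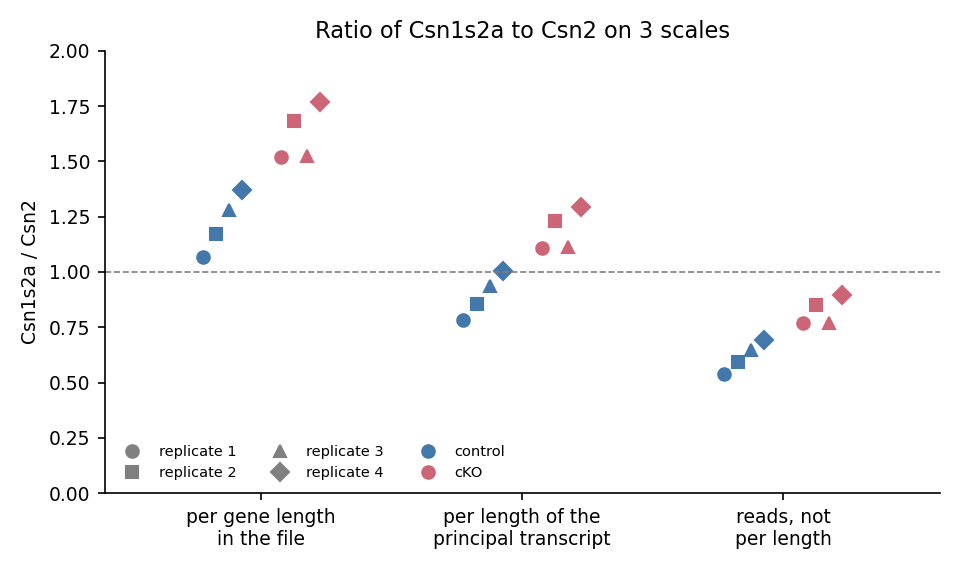
Ratio of Csn1s2a to Csn2 in each library, per the gene length in the deposited table, per the length of the principal transcript and in reads not divided by length, with a dashed line at equal levels. The controls, in blue, lie above 1 on the first scale, at 0.781 to 1.00 on the second and at 0.541 to 0.694 on the third, and on each scale the cKO libraries, in red, lie above the controls.

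The third comparison set the caseins against luminal markers, since in bulk RNA more luminal cells and more casein RNA per cell cannot be told apart. The 6 luminal markers Krt8, Krt18, Krt19, Epcam, Cdh1 and Cldn3, genes of the luminal cytoskeleton and of epithelial junctions, summed to 4928 to 6198 FPKM in the controls and 4801 to 6252 FPKM in the cKO libraries. None of them was at 0, and 0 of 6 were called by limma in either direction, by adjusted or unadjusted p or by limma-voom, where the shares of all genes tested were 0.588% and 0.304% by adjusted p, 8.85% and 7.53% by unadjusted p and 0.991% higher by limma-voom. With 6 genes a count of 0 lies near these shares and does not show that the markers were equal. Their mean log2 FPKM differed by -0.03 (two-sided exact permutation test, n = 4 each, p = 0.771). Relative to this mean, the log2 level of Csn1s2a was 1.46 higher in the cKO group, that of Csn2 1.05, that of Csn3 0.98, that of Csn1s1 0.91 and that of Csn1s2b 1.78, or 0.81 with a pseudocount of 1. None of these overlapped between the groups (p = 0.0286 each by a two-sided exact permutation test).

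Other cell types were read from their markers in the same way. The 7 myoepithelial markers, among them Krt14 and Acta2, summed to 1602 to 2183 FPKM in the controls and 1506 to 2076 FPKM in the cKO libraries, with 0 called by adjusted p, 1 higher and 1 lower at an unadjusted p of 0.05 and 1 higher by limma-voom. Over all genes tested the shares were 0.588% higher and 0.304% lower by adjusted p and 0.991% higher by limma-voom. At an unadjusted p of 0.05 they were 8.85% higher and 7.53% lower. The lower gene was Krt14, at 753 FPKM in the controls and 577 FPKM in the cKO libraries with overlapping groups (log2 fold change -0.39). Oxtr was the higher one, at 2.62 and 5.65 FPKM without overlap. Acta2 had a log2 fold change of 0.21, so the sum can hide differences in opposite directions. The 5 adipocyte markers summed to 78.4 to 121 FPKM and 101 to 135 FPKM, and 2 of the 3 tested were higher at an unadjusted p of 0.05. Summed markers of hormone-sensing luminal cells (4 genes, 11.1 to 12.3 and 9.34 to 11.4 FPKM), endothelial cells (3 genes, 58.4 to 68.4 and 42.7 to 65.1 FPKM), immune cells (4 genes, 17.0 to 36.9 and 14.1 to 21.6 FPKM) and fibroblasts (3 genes, 179 to 355 and 122 to 268 FPKM) overlapped as well, with 1 endothelial and 1 immune marker lower at an unadjusted p of 0.05 and 0 called by adjusted p. No marker of these lists was at 0 in all libraries. The part of cell mixture in the casein values was not tested.

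The genes that control casein transcription were examined as a list of 14, from the prolactin receptor through JAK2 and STAT5 to the SOCS inhibitors. By limma 0 of 14 were called in either direction, against 0.588% of all genes tested higher and 0.304% lower. With 14 genes a count of 0 lies near these shares. At an unadjusted p of 0.05, 3 were higher and 1 lower, and limma-voom called 1 higher, against 8.85%, 7.53% and 0.991%. Their median log2 fold change was 0.06, and that of all genes tested was 0.00072. Elf5, the ETS factor of alveolar cells, had the largest value, with 17.8 to 24.7 FPKM in the controls and 31.9 to 49.8 FPKM in the cKO libraries, without overlap. Its log2 fold change was 0.82 ± 0.16 (SE, limma, adjusted p = 0.0591), and it was the gene that limma-voom called. The RNA of the transducers themselves lay near no difference, with a log2 fold change of 0.07 for Prlr, 0.0015 for Jak2, 0.04 for Stat5a and 0.14 for Stat5b. RNA levels do not measure the phosphorylation of these proteins, so they do not show whether the pathway was equally active. Socs1, an inhibitor of JAK kinases, was 10.9 ± 1.15 FPKM in the controls and 7.70 ± 1.41 FPKM in the cKO libraries (SD, n = 4 each) without overlap, a log2 difference of -0.47 (limma, adjusted p = 0.116). Socs3, of the same family, was 86.7 ± 3.21 FPKM and 98.5 ± 7.82 FPKM, higher without overlap, with a log2 difference of 0.18 (limma, adjusted p = 0.254). Socs2 and Cish, both STAT5 targets that feed back on the pathway, had log2 differences of 0.02 and -0.09 with overlapping groups. Cebpb had a log2 difference of -0.20 and Nr3c1, the glucocorticoid receptor, of 0.10, both with overlapping groups.

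The genes that modify casein or load it with mineral were a list of 9, of which 8 were tested. Of these, 1 was called higher and 0 lower by limma, 7 were higher and 0 lower at an unadjusted p of 0.05, and limma-voom called 2 higher. Over all genes tested 0.588% were called higher and 0.304% lower by limma, and 0.991% higher by limma-voom. Without adjustment 8.85% were higher and 7.53% lower. The median log2 fold change was 0.35. Atp2c2, a Golgi calcium and manganese pump, rose from 12.7 ± 2.47 to 26.2 ± 4.65 FPKM (SD, n = 4 each, log2 fold change 0.99, limma, adjusted p = 0.0316). Fam20c, the Golgi kinase that phosphorylates caseins, was 4.18 ± 0.244 and 5.59 ± 1.03 FPKM, with a log2 fold change of 0.33 (limma, adjusted p = 0.177). Fam20a, the pseudokinase partner that activates it, was 8.51 ± 1.24 and 20.4 ± 8.16 FPKM, with a log2 fold change of 1.11 (limma, adjusted p = 0.0593). C1galt1, which extends the O-glycans carried by proteins such as κ-casein, had a log2 fold change of 0.37 (limma, adjusted p = 0.136). Atp2b2, a plasma membrane calcium pump, had at most 8 reads in a library and was not tested.

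Of 10 milk genes that are not caseins, 3 were called higher and 0 lower by limma, and 6 were higher at an unadjusted p of 0.05, against 0.588%, 0.304% and 8.85% of all genes tested. Their median log2 fold change was 0.72. Wap, Muc15, Lalba, Xdh and Btn1a1 of this list were named by the study from these libraries, so their direction is not independent evidence. Of these, Lalba overlapped, at 15.9 to 30.5 FPKM in the controls and 14.5 to 86.8 FPKM in the cKO libraries (limma, adjusted p = 0.419). Xdh and Btn1a1 were higher without overlap and were not called (limma, adjusted p = 0.103 and 0.125). Wap and Glycam1, both small secreted proteins of the milk serum, had log2 fold changes of 2.25 and 2.24, above that of each casein gene on the same scale. Muc15, a mucin of the milk fat globule membrane, was the third. Ltf, the lactoferrin gene, and Mfge8 had log2 fold changes of 0.06 and -0.11 with overlapping groups.

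**Figure D5:**
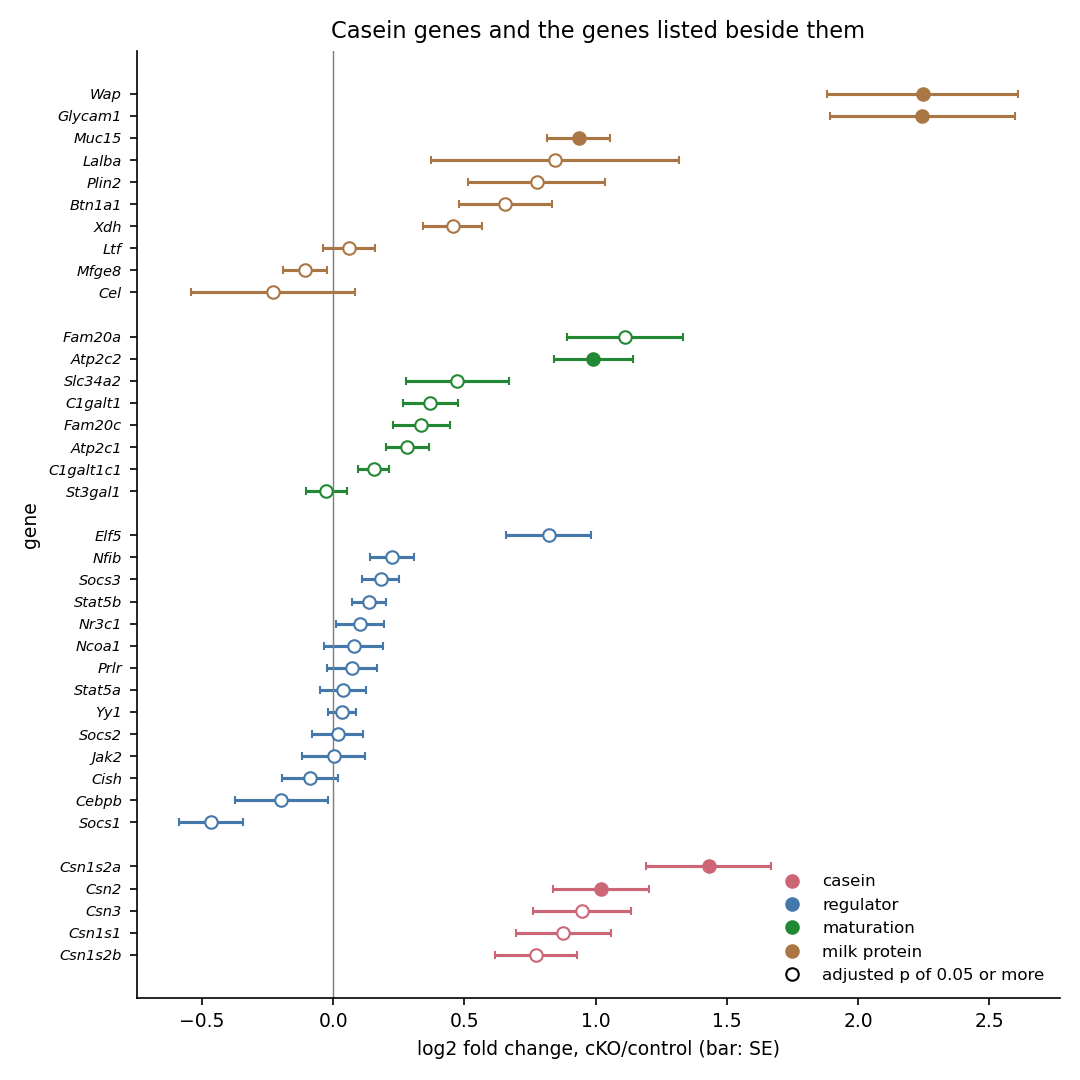
Log2 fold change of cKO over control with its SE for the casein genes, the regulators of casein transcription, the maturation genes and the other milk proteins, sorted within each list. Filled points have an adjusted p under 0.05. Csn1s2a and Csn2 are filled among the caseins and none of the 14 regulators is, where 0.588% of all genes tested were called higher.

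The genes whose pattern over the 8 libraries was most like that of a casein were found by the root mean square difference of log2(FPKM + 1), each gene centred on its own mean, among the genes with a mean of at least 10 FPKM over the 8 libraries. This minimum admits genes such as Acsl1, Fam20a, Cd320 and Rab4a, which were under it in the controls and over it in the cKO libraries, and so favours genes that were higher in the cKO group, as the caseins were. These libraries also gave the fold changes, so the likeness is a description. The gene nearest to Csn1s1 was Csn3 at 0.057, and Csn1s1 was likewise the nearest gene to Csn3. Elf5 was the nearest gene to Csn1s1 outside the caseins, at 0.069, and the nearest to Csn3 outside the caseins, at 0.092. Acsl1, a long-chain acyl-CoA synthetase gene, was the gene nearest to Csn2, at 0.081, ahead of Csn3 at 0.091. Csn1s2a stood further from its nearest genes, with Arg2, a mitochondrial arginase, at 0.23, Fam20a at 0.23 and Csn2 at 0.24. The measure is not scaled by spread, and Csn1s2a had the widest spread over the libraries, 0.784 against 0.440 to 0.562 for the other members. Its distances thus partly restate its larger fold change. Csn1s2b, on this compressed scale, was nearest to Rab4a at 0.10, and Csn1s2a was 875th in its order. The other genes named by the rule were Cd320 and Cd36 for Csn1s1, Arg2 and Elf5 for Csn2, Acsl1 for Csn1s2a, Fth1 and Cd36 for Csn1s2b, and Acsl1 and Arg2 for Csn3.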

How the data were processed

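The authors prepared NEBNext Ultra libraries from mammary epithelial RNA, used Hisat2 to map the reads to GRCm38, and deposited FPKM values per gene. The submitters' processing notes name featureCounts 1.5.0-p3, StringTie 1.3.3b and build mm9, but 99.7% of the 55394 gene identifiers found in GENCODE vM21 have its GRCm38 coordinates, so GRCm38 is used. Each deposited FPKM times gene length gave whole reads for 100% of values (tolerance 0.01 of a read), with scaling by median-of-ratios size factors. Strand use in counting was not given in the sources used here.

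The 15143 genes averaging 0.5 FPKM or more were tested with limma 3.58.1 in R 4.3.3 on log2(FPKM + 1), with trend and Benjamini-Hochberg adjustment, a scale that understates changes of low genes. limma-voom on the recovered reads was an alternative. Single values and ratios were compared by exact permutation of the libraries in Python 3.11.15 with scipy 1.17.1. The limma and limma-voom fits were tried on simulated reads with a fixed dispersion and no sets of replicates. The permutation test was checked on small sets of values with known answers. The members, lists and alternatives were chosen with earlier results of these data known. Genes named are the members, all genes inside their cluster, the nearest 3 with a mean of at least 0.5 FPKM on each side, Bmpr1a, the listed genes, and for each member the 3 non-casein genes nearest in pattern. Replicate numbers are those of the sample labels and only name the libraries. Labels and methods do not say which mice share a litter. Same-numbered libraries correlated at 0.0797 to 0.137 in their deviations from the group means, not over 0.1 in all pairs, so numbers were not taken to pair mice.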

Additional observations from a re-analysis of the deposited data

Results flagged for a closer look

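In 32 groups of 4 libraries (the FPKM of each casein gene, each ratio and the summed share of reads), the highest and the lowest library were compared with the others by Dixon's criterion, and 2 stood apart. Chance alone marks about 1 in 20 such groups. Csn1s2b was 0.687 FPKM in control replicate 3, on 49 reads, while the other controls held 0.352 to 0.380 FPKM on 26 to 29 reads. Its log2 fold change on log2(FPKM + 1) ran from 0.63 to 0.87 when each library was left out in turn. The log2 ratio of Csn1s2a to Csn1s1 was 1.65 in control replicate 4, the other controls lay at 1.51 to 1.53, and all cKO libraries lay above it, from 1.96 to 2.26.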

How the results depend on the processing

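Of 5 casein genes, 2 were called by limma, and the count depended on the setting. It was 3 with a pseudocount of 0.1, 2 without trend and 2 of the 4 genes left by a minimum mean of 1 FPKM. It was 5 with TPM, with TPM without the caseins in the sum, with a term for the 2 sets of replicates (1 and 2, 3 and 4), with limma-voom on recovered reads and with limma-voom with a replicate block, which was chosen after seeing the data. It was 0 without a filter on low values, where the log2 fold changes stayed 1.02 for Csn2 and 1.43 for Csn1s2a (limma, adjusted p = 0.308 and 0.291), and 0 to 1 with each library left out. Over all genes tested the share called higher was 0.621% with a pseudocount of 0.1, 0.462% with TPM, 0.528% with TPM without the caseins, 1.79% with the block of sets and 2.67% with the blocked limma-voom. TPM moved the split of all calls from 89 higher and 46 lower to 70 higher and 62 lower.

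A fit with a replicate block passed 4 of the 5, against 0.238% of all genes, namely Csn1s2a, Csn2, Csn1s1 (log2 fold change 0.88) and Csn3 (0.95), but not Csn1s2b (adjusted p = 0.0798). The numbers pair no mice by the labels, and not every library correlated best with its own number. Under the block the exact sign-flip test of the ratios and of the share allows no p under 0.125. The replicate block also gave 1 regulator, 0 maturation genes and 2 of the other milk genes called higher, and the calls of Atp2c2 (adjusted p = 0.0633) and Wap (0.0539) were lost.

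With TPM the log2 fold change was 0.82 for Csn1s1, 0.89 for Csn3 and 0.74 for Csn1s2b, and without the caseins in the sum 0.84, 0.91 and 0.76, each passing. Csn1s2b also passed with a pseudocount of 0.1, at 1.54. TPM gave 1 regulator and 2 maturation genes called higher. Leaving out single libraries, the log2 fold change ran from 0.74 to 0.96 for Csn1s1, 0.87 to 1.12 for Csn2, 1.24 to 1.56 for Csn1s2a, 0.63 to 0.87 for Csn1s2b and 0.78 to 1.04 for Csn3.

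A pseudocount of 1 in the ratios turned those with Csn1s2b, whose level is near the pseudocount itself, to -0.10 against Csn1s1, -0.25 against Csn2, -0.66 against Csn1s2a and 0.17 for Csn3/Csn1s2b. With each library left out, the number of ratios with an adjusted p under 0.05 was 0 to 7, and the log2 differences were 0.50 to 0.60 for Csn1s2a/Csn1s1, 0.71 to 1.02 for Csn1s2b/Csn1s1, 0.35 to 0.47 for Csn1s2a/Csn2, 0.59 to 0.92 for Csn1s2b/Csn2, 0.12 to 0.48 for Csn1s2b/Csn1s2a, -0.52 to -0.45 for Csn3/Csn1s2a and -0.97 to -0.64 for Csn3/Csn1s2b. Within replicates 1 and 2 and within 3 and 4, Csn2/Csn1s1 differed by -0.045 and 0.33, Csn3/Csn1s1 by 0.0040 and 0.14, and Csn3/Csn2 by 0.049 and -0.19. The difference of the casein share was 2.85 percentage points of reads, 1.89 of summed FPKM, and 2.31 to 3.21 with each library left out. The ratio of Csn1s2a to Csn2 by transcript length was 0.895 and 1.19 in the 2 groups, and 0.754 and 1.00 by the shortest coding transcript. The levels relative to luminal markers kept their direction with Krt8 and Krt18 alone and with a pseudocount of 1, which lowered that of Csn1s2b from 1.78 to 0.81. Leaving out a library cannot make groups overlap that do not, so it says nothing about these levels. Where not stated, the cause of a change was not tested.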

Other observations

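The abundant caseins moved up the order of all genes by FPKM. Csn2 ranked between 9 and 13 in the control libraries and between 4 and 5 in the cKO libraries, Csn1s1 between 43 and 65 and then between 15 and 24, and Csn3 between 65 and 90 and then between 22 and 35. Among the 15143 genes tested, Csn1s2a had the 14th largest log2 fold change on log2(FPKM + 1), Csn2 the 35th, Csn3 the 46th, Csn1s1 the 62nd and Csn1s2b the 102nd. Jchain, an immunoglobulin chain gene to the right of the cluster, was 2.52 to 22.7 FPKM in the controls and 2.38 to 4.06 FPKM in the cKO libraries.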
